A study of Mus musculus with 16 samples.

Results

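The transcripts of 7 transcription factor genes that act with the AP-1 and interferon regulatory factor (IRF) families in B cells, Batf, Batf3, Irf8, Spi1, Spib, Mef2b and Mef2c, were followed in positively selected germinal center (GC) B cells. The 7 genes were picked by symbol from the 51912 genes with a value, and all 7 had a mean normalized count of at least 10 and so were among the 12505 genes tested. The cells came from spleens of cMyc gfp/gfp mice, in which the endogenous Myc locus encodes cMyc fused to GFP. Male and female mice aged 6 to 15 weeks received sheep red blood cells (SRBC) intraperitoneally, and splenic B cells enriched by CD43 depletion were sorted 7 days later. All sorted cells were B220+ CD38low CD95+ cMycGFP+. They were divided into cMyc+ prePB (CD69hi), cMyc+ early (CD23hi CD21/35hi), cMyc+ lateCD23int (CD23int CD21/35int) and cMyc+ lateCD23lo (CD23lo CD21/35lo), with 4 libraries each and 16 in all. In the gating that the study describes, CD69hi cells were set apart first and CXCR4hi CD86lo dark zone cells next. The early and late cells were light zone cells from the remainder. For cMyc+ prePB no zone gate was used, and the study found it to be mostly light zone cells. All groups carried the reporter allele and all were immunized. No cMyc-negative cells were among the libraries compared, and the labels do not state whether a library came from 1 mouse or from pooled mice, so p-values measure the spread between these samples, which may be technical. The values are bulk measurements, in which fewer cells of a type and less RNA per cell cannot be told apart.

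BATF is a basic leucine zipper protein that pairs with JUN proteins and recruits IRF4 or IRF8 to composite AP-1 and IRF elements; in B cells it is needed for class switching. BATF3 is its close relative, best known from dendritic cells. IRF8 also binds with the ETS factors PU.1, encoded by Spi1, and SPI-B, encoded by Spib, to composite ETS and IRF elements, and the MEF2 factors MEF2B and MEF2C act in the GC reaction, where MEF2B is known as an activator of Bcl6. Irf4, the other IRF that binds with BATF and a driver of plasma cell differentiation, was followed as a partner gene.

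Recovered reads ranged from 19812080 to 25795815 per library, and log2 values of the libraries correlated at 0.825 to 0.916. A level of 3 reads, taken as the lower limit of what could be measured, was 2.48 to 3.23 normalized counts, and it covers counting error only. The libraries differed in base composition. The difference between the genes richest and poorest in guanine and cytosine (GC-rich and GC-poor genes, by quartile) ranged from -0.54 to 0.75 on the log2 scale over the libraries. It was negative in all 4 libraries numbered 1 and in all 4 cMyc+ lateCD23lo libraries, and positive in 3 of the 4 cMyc+ prePB libraries. Its values are given beside the genes that moved with it. Summed markers of B and GC B cells, 12 of 12 tested, were at 135403 to 319355 normalized counts in every library. They were above the summed markers of T cells, macrophages and monocytes and dendritic cells, which were each at most 6278. Summed plasma cell markers were at 79718 to 169676, highest in cMyc+ prePB replicate 1. The most abundant genes of that list were Ighm (mean 51427) and Jchain (46424). The part of plasma cell transcripts was not tested.

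Of the 7 genes, 1 differed among the 4 subpopulations, against 0.408% of all genes tested (limma F test, adjusted p under 0.05). That gene was Batf. In cMyc+ prePB against the other 3 subpopulations, 1 of 7 was called, again Batf, against 0.312% of all genes. The count was 1 of 7 against cMyc+ lateCD23int (0.144% of all genes) and 1 of 7 against cMyc+ lateCD23lo (0.264%), both for Batf. Against cMyc+ early, 0 of 7 were called by limma and 0 by edgeR (0.192% of all genes), with 2 of 7, Batf and Mef2c, at an unadjusted p under 0.05, beside 1073 of the 12505 genes. No member was called by limma or by edgeR between cMyc+ early and cMyc+ lateCD23int (0.008% of all genes), between cMyc+ early and cMyc+ lateCD23lo (0.28%) or between cMyc+ lateCD23int and cMyc+ lateCD23lo (0.008%), where 1, 2 and 1 members had an unadjusted p under 0.05, beside 464, 1290 and 785 of the 12505 genes tested. The study itself named Batf from these libraries, so its call here is not independent evidence of its direction.

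**Figure D1:**
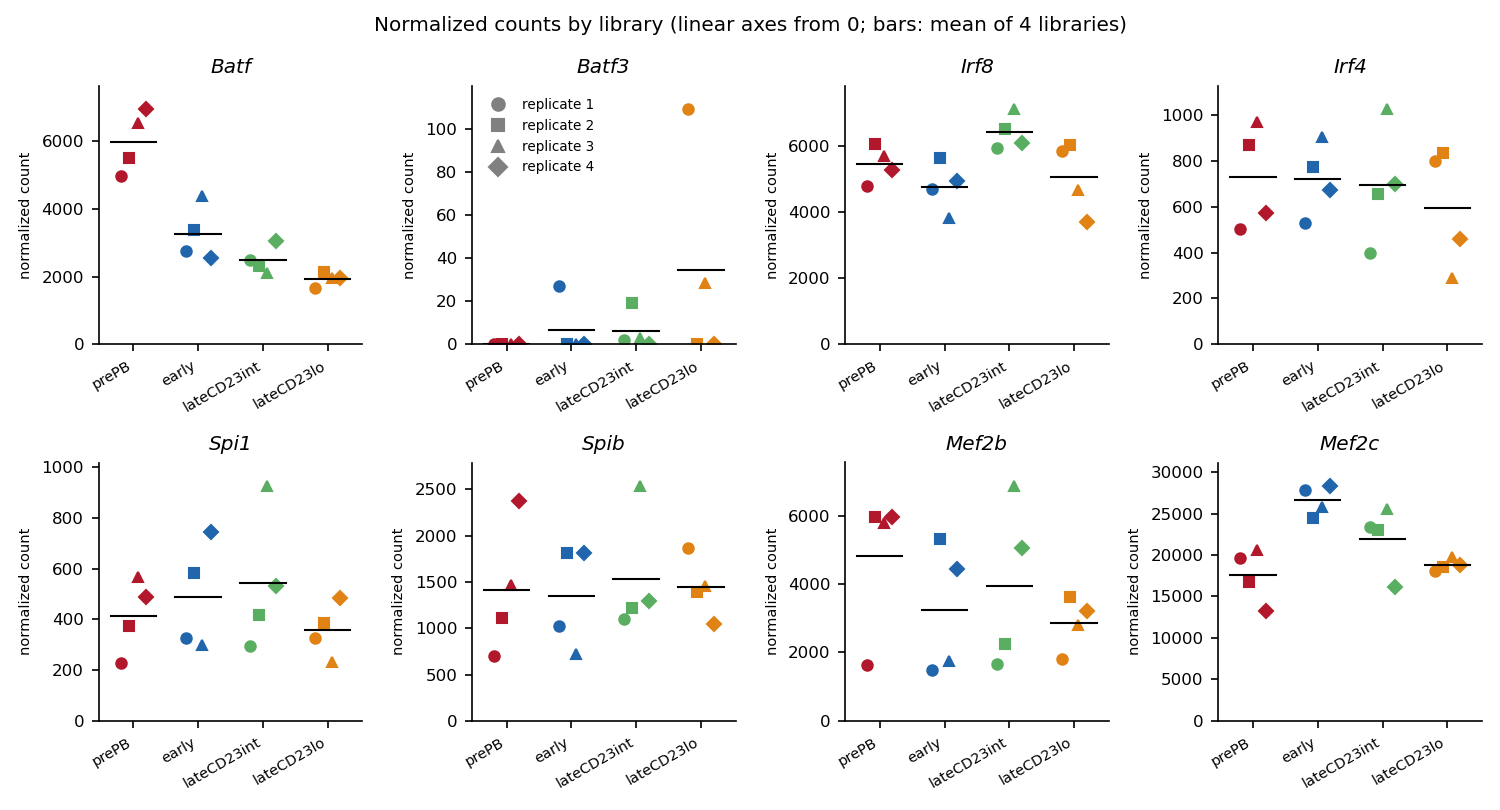
Normalized counts (linear vertical axes from 0) of the 7 factors and of Irf4 in each library, by subpopulation; marker shapes give the replicate number and bars the mean of 4 libraries. The 4 cMyc+ prePB libraries lie at 4969 to 6937 for Batf, above the other 12, whereas for Spi1, Spib and Irf4 the subpopulations overlap.

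Batf (ENSMUSG00000034266, chr12:85686669-85709087 of GRCm38, plus strand) was at 4969, 5517, 6524 and 6937 normalized counts in the cMyc+ prePB libraries 1 to 4. It was at 2761, 3372, 4376 and 2564 in cMyc+ early and at 2501, 2308, 2107 and 3052 in cMyc+ lateCD23int. All 4 cMyc+ prePB libraries were above every other library. The lowest values were those of cMyc+ lateCD23lo, at 1667, 2138, 1951 and 1969, all below every cMyc+ early library, with 1 of them above the lowest cMyc+ lateCD23int library. The group means were 5987 ± 904, 3268 ± 815, 2492 ± 407 and 1931 ± 195 (SD, n = 4 each), so that the order was cMyc+ prePB, cMyc+ early, cMyc+ lateCD23int and cMyc+ lateCD23lo.

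Against the mean of the other 3 subpopulations, Batf in cMyc+ prePB was higher by 1.26 on the log2 scale, or 2.4-fold (SE 0.148, limma adjusted p = 0.000562). The difference from cMyc+ lateCD23lo was 1.63 (SE 0.182, limma adjusted p = 0.000225) and that from cMyc+ lateCD23int was 1.27 (limma adjusted p = 0.00666). From cMyc+ early the difference was 0.89, or 1.86-fold, with a 95% interval of 0.51 to 1.27, and its limma adjusted p of 0.0519 missed the threshold although the libraries did not overlap. That call depended on the setting: the adjusted p was 0.0424 with libraries rescaled to the same total, 0.04 with quantile normalization, 0.0016 in DESeq2 and 0.0903 in edgeR. Without cMyc+ early replicate 3, the highest cMyc+ early library, it was 0.0363 in limma. It was also under the threshold without cMyc+ prePB replicate 1 (0.0477) and without cMyc+ lateCD23lo replicate 1 (0.0498). Below cMyc+ prePB, the step from cMyc+ early to cMyc+ lateCD23lo was 0.73 (95% interval 0.35 to 1.11, limma adjusted p = 0.116), and neighbors in the order did not differ past the threshold, with 0.37 (95% interval -0.01 to 0.76) from cMyc+ early to cMyc+ lateCD23int and 0.36 (95% interval -0.02 to 0.74) from there to cMyc+ lateCD23lo.

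Of the variance of Batf over the 16 libraries on the log2 scale, 88.9% lay between subpopulations, against a median of 21.3% over all genes tested. Within subpopulations its SD was 0.246, at percentile 9.2 of the genes tested. The longest Batf transcript had a GC content of 56.6% (percentile 89.0). The base composition of the libraries moved with Batf only in part, at r = 0.45 over the 16 libraries. With log2 values centred within 20 bins of transcript GC content, a setting chosen after the values had been seen, the cMyc+ prePB libraries lay at 4782 to 5684 and the highest other library at 4641. The difference of Batf was then 1.12 (limma adjusted p = 0.00637), and it was 1.17 from cMyc+ lateCD23int (adjusted p = 0.0343) and 1.37 from cMyc+ lateCD23lo (adjusted p = 0.00639). From cMyc+ early it was 0.80 (limma adjusted p = 0.204). The SD of Batf within subpopulations was 0.333 after this centring. The cMyc+ lateCD23lo libraries 1 to 4 then lay at 1765, 2060, 2177 and 2058. They were no longer all below cMyc+ early, whose replicate 4 was at 2046. The lowest library was then cMyc+ lateCD23int replicate 3, at 1529.

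Batf is also active in T cells. Summed T cell markers (10 genes, 5 tested) were at 90.3 to 732 normalized counts in cMyc+ prePB, 37.2 to 87.6 in cMyc+ early, 115 to 199.8 in cMyc+ lateCD23int and 72.4 to 306 in cMyc+ lateCD23lo. In the cMyc+ prePB libraries 1 to 4 the sums were 90.3, 333, 344 and 732, beside Batf at 4969, 5517, 6524 and 6937, so that both were lowest in replicate 1 and highest in replicate 4. In cMyc+ early the sums were 38.8, 37.2, 76.0 and 87.6, with Batf highest in replicate 3 (4376) and lowest in replicate 4 (2564). In cMyc+ lateCD23int they were 115, 156, 189 and 199.8, with Batf highest in replicate 4 (3052) and lowest in replicate 3 (2107). In cMyc+ lateCD23lo they were 267, 306, 172 and 72.4, with Batf highest in replicate 2 (2138) and lowest in replicate 1 (1667). Of the 10 markers, Trac was above 0 in all 16 libraries (11.6 to 110), Cd3d and Pdcd1 were at 0 in 1 library each and Cd5 in 2, whereas Cd3g and Cd8a were at 0 in 11, Icos in 12, Cd3e and Cd4 in 13 and Il21 in 14. Pdcd1, which activated B cells can also express, reached 482 in the library with the sum of 732. The part of T cell transcripts in the Batf values was not tested.

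Batf3 (ENSMUSG00000026630, chr1:191097847-191108945) was near the limit of measurement. It was at 0 in all 4 cMyc+ prePB libraries and at 27.2, 0, 0 and 0 in cMyc+ early. In cMyc+ lateCD23int it was at 1.99, 19.3, 3.11 and 0, and in cMyc+ lateCD23lo at 109, 0, 28.5 and 0. Thus 10 of 16 libraries held no read and 4 held more than 3 reads, with 101 reads at the highest. Libraries of the same subpopulation ranged from 0 to a clear signal, and the subpopulations did not differ past the threshold (limma F test, adjusted p = 0.754). No fold is given because cMyc+ prePB lay below the limit, and with values this low a difference could be missed. Summed dendritic cell markers were at 3092 to 6278 over all libraries, with Cst3 (mean 2916), Flt3 (723), Bst2 (526) and Zbtb46 (31.6) at 0 in no library. Xcr1 was at 0 in 6 libraries, Itgax in 7, Cd209a in 12, Ccr9 in 14 and Clec9a and Siglech in 15 each, and the part of dendritic cell transcripts in the Batf3 values was not tested.

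Among the IRF partners, Irf8 (ENSMUSG00000041515, chr8:120736358-120756694) was abundant and varied little within subpopulations. It was at 4803, 6078, 5712 and 5298 normalized counts in cMyc+ prePB and at 4709, 5644, 3842 and 4938 in cMyc+ early. In cMyc+ lateCD23int it was at 5967, 6529, 7120.1 and 6095, and in cMyc+ lateCD23lo at 5868, 6053, 4673 and 3713. All subpopulations overlapped except that the cMyc+ lateCD23int libraries all lay above those of cMyc+ early. Its SD within subpopulations was 0.221 on the log2 scale, at percentile 6.0 of the genes tested. The difference of cMyc+ prePB from the other 3 subpopulations was 0.03 (95% interval -0.25 to 0.32, limma adjusted p = 0.954), an interval that leaves out the 2.4-fold difference measured for Batf. From cMyc+ early to cMyc+ lateCD23int the difference was -0.44 (95% interval -0.78 to -0.09), with an unadjusted p of 0.0161 and a limma adjusted p of 1. The gene Gm20388 spans the locus on the same strand and shares no exon bases with Irf8.

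Irf4 (ENSMUSG00000021356, chr13:30749226-30766976) was at 505, 870.0, 968 and 573 normalized counts in cMyc+ prePB. It was at 529, 772, 906 and 674 in cMyc+ early, at 398, 655, 1025 and 699.9 in cMyc+ lateCD23int and at 799.6, 835, 287 and 461 in cMyc+ lateCD23lo. All 4 subpopulations overlapped. The difference of cMyc+ prePB from the other 3 was 0.15 (95% interval -0.46 to 0.76, limma adjusted p = 0.882).

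Ratios within a library do not depend on the size factor, and they can be compared between libraries but not between gene pairs, because the genes differ in length. The log2 ratio of Batf to Irf8 was 0.05, -0.14, 0.19 and 0.39 in the 4 cMyc+ prePB libraries. It ran from -0.95 to 0.19 in cMyc+ early and from -1.82 to -0.92 in cMyc+ lateCD23lo, and in cMyc+ lateCD23int it averaged -1.38, with -1.76 at the lowest. The cMyc+ prePB and both cMyc+ late subpopulations did not overlap, whereas 1 cMyc+ early library, replicate 3, lay within the cMyc+ prePB range. The ratio of Batf to Irf4 was 2.67 to 3.60 in cMyc+ prePB and 1.93 to 2.38 in cMyc+ early, and it reached 2.65 in cMyc+ lateCD23int and 2.76 in cMyc+ lateCD23lo. The ratio of Irf4 to Irf8 lay between -3.25 and -2.56 in cMyc+ prePB, inside the range of -4.02 to -2.09 of the other subpopulations.

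**Figure D2:**
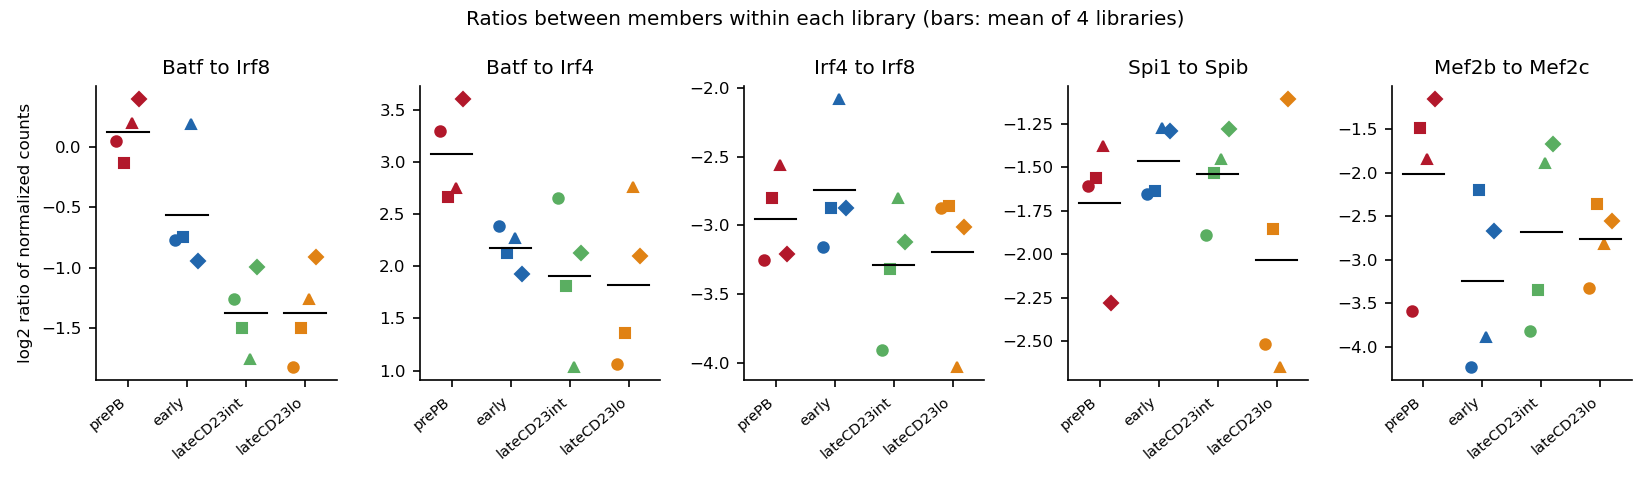
Log2 ratios of normalized counts between 2 genes within each library (vertical axes, 1 scale per panel), by subpopulation; marker shapes give the replicate number as in the plot of counts by library and bars the mean of 4 libraries. The ratio of Batf to Irf8 is -0.14 to 0.39 in cMyc+ prePB and at most -0.92 in both cMyc+ late subpopulations, and the ratio of Mef2b to Mef2c spreads over more than 2 log2 units within cMyc+ prePB.

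The ETS partners did not differ between subpopulations past the threshold. Spi1 (ENSMUSG00000002111, chr2:91082390-91115756) was at 229, 376, 566 and 488 normalized counts in cMyc+ prePB and at 327, 583, 299 and 744 in cMyc+ early. In cMyc+ lateCD23int it was at 296, 419, 927 and 533, and in cMyc+ lateCD23lo at 327, 386, 232 and 483. The subpopulations overlapped over nearly the whole range (limma F test, adjusted p = 0.863), and the difference of cMyc+ prePB from the other 3 was -0.12 (95% interval -0.81 to 0.57). Spib (ENSMUSG00000008193, chr7:44525993-44532071, minus strand) was at 696, 1109.8, 1471 and 2372 in cMyc+ prePB and at 1028, 1809.6, 723 and 1816 in cMyc+ early. It was at 1095, 1215, 2536 and 1291 in cMyc+ lateCD23int and at 1866, 1396, 1456 and 1042 in cMyc+ lateCD23lo. Here too all subpopulations overlapped (limma F test, adjusted p = 0.979), with a difference of -0.09 (95% interval -0.72 to 0.54) for cMyc+ prePB. The signs of both differences turned when cMyc+ prePB replicate 1 was left out, to 0.14 for Spi1 and 0.20 for Spib. Macrophages and monocytes also express Spi1; their summed markers (13 genes, 4 tested) were at 307 to 964 in cMyc+ prePB, 203 to 388 in cMyc+ early, 281 to 982 in cMyc+ lateCD23int and 756 to 1447 in cMyc+ lateCD23lo. Of these markers Cd68 was above 0 in all 16 libraries (165 to 753), Lyz2 was at 0 in 1 and reached 968, C1qb was at 0 in 3 and S100a9 in all 16, and the other 9 were at 0 in 8 to 15 libraries. The part of macrophage transcripts in the Spi1 values was not tested.

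Mef2b (ENSMUSG00000079033, chr8:70139711-70167488) spread most within subpopulations among the members other than Batf3. It was at 1624, 5973, 5773 and 5950.4 normalized counts in cMyc+ prePB and at 1486, 5305, 1738 and 4435 in cMyc+ early. In cMyc+ lateCD23int it was at 1659, 2250.3, 6867 and 5051, and in cMyc+ lateCD23lo at 1809, 3609.9, 2794 and 3200.3. Replicate 1 was the lowest library of every subpopulation, and the other 3 cMyc+ prePB libraries were close together. The subpopulations overlapped (limma F test, adjusted p = 0.856), and the difference of cMyc+ prePB from the other 3 was 0.53 (95% interval -0.33 to 1.38, limma adjusted p = 0.66). Of its variance, 10.9% lay between subpopulations and 55.7% between replicate numbers, against medians of 21.3% and 21.8% over all genes tested. Mef2b shares 62 exon bases with Borcs8 on the same strand, which was at a mean of 796 normalized counts.

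The base composition of the libraries moved with Mef2b. Its longest transcript had a GC content of 64.2%, higher than that of nearly all genes (percentile 99.6). Over the 16 libraries, which share their library preparation and the genes behind both measures, Mef2b correlated at r = 0.92 with the difference between GC-rich and GC-poor genes, Spi1 at 0.77 and Spib at 0.66. Of all genes tested, 6.8% had r over 0.7. The values were 0.33 for Irf8, 0.52 for Irf4 and -0.29 for Mef2c. Batf3, with a GC content of 60.7% and mostly values of 0, was at -0.53. After centring within GC bins, the SD of Mef2b within subpopulations was 0.549 in place of 0.843 on the log2 scale, that of Spi1 0.332 in place of 0.593 and that of Spib 0.427 in place of 0.59. It was 0.206 in place of 0.221 for Irf8 and 0.19 in place of 0.213 for Mef2c. The SD rose for Batf, from 0.246 to 0.333, and for Irf4, from 0.538 to 0.551. Replicate 1 remained the lowest Mef2b library in each subpopulation, at 1806 to 1939 centred normalized counts. No call of Mef2b, Spi1 or Spib was gained, with limma adjusted p of 0.701, 0.635 and 0.806 for cMyc+ prePB against the other 3.

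**Figure D3:**
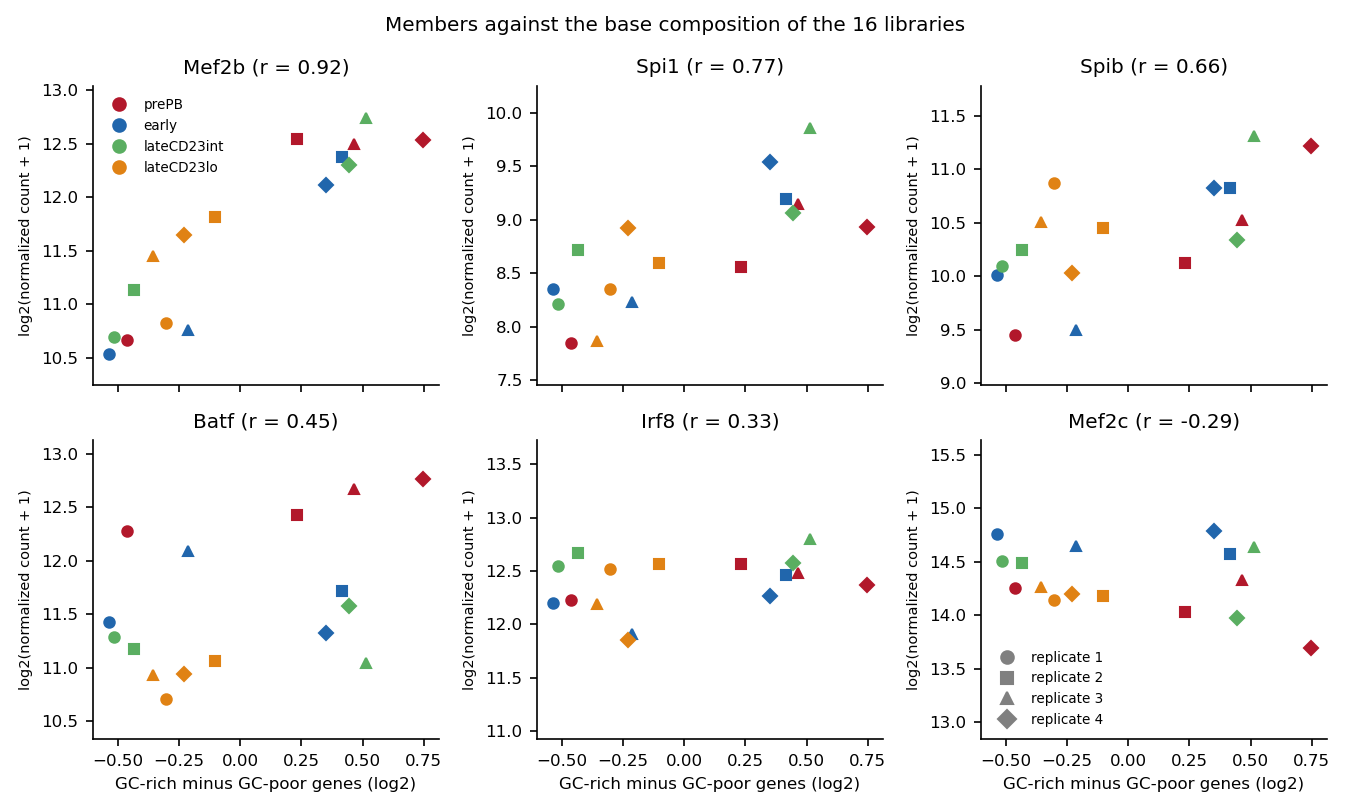
Level of 6 genes (log2 of normalized count + 1, vertical axes spanning the same 2.8 log2 units) against the mean log2 deviation of GC-rich minus GC-poor genes of each library (horizontal axis); colors give the subpopulation and shapes the replicate number. Mef2b follows the horizontal axis at r = 0.92, whereas the 4 cMyc+ prePB libraries are the highest for Batf at values from -0.47 to 0.75.

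Mef2c (ENSMUSG00000005583, chr13:83504034-83667080) passed no limma or edgeR test. It was at 19603, 16788, 20655 and 13272 normalized counts in cMyc+ prePB and at 27852, 24419, 25758 and 28325 in cMyc+ early. In cMyc+ lateCD23int it was at 23351, 22965, 25528 and 16085, and in cMyc+ lateCD23lo at 18116, 18553, 19707 and 18846. All cMyc+ early libraries lay above all those of cMyc+ prePB and of cMyc+ lateCD23lo and overlapped with cMyc+ lateCD23int. The means were 17579.7 ± 3303, 26588 ± 1826, 21982 ± 4090.5 and 18806 ± 672 (SD, n = 4 each), highest in cMyc+ early and lowest in cMyc+ prePB. The difference of cMyc+ prePB from cMyc+ early was -0.62 (95% interval -0.94 to -0.29), with an unadjusted p of 0.000846 and a limma adjusted p of 0.159, and that of cMyc+ early from cMyc+ lateCD23lo was 0.50 (95% interval 0.17 to 0.82, limma adjusted p = 0.242). The F test gave an unadjusted p of 0.00465 and a limma adjusted p of 0.232. DESeq2 alone put Mef2c past the threshold, at an adjusted p of 0.0439 among the subpopulations and 0.0271 for cMyc+ prePB against cMyc+ early. Subpopulations held 61.6% of its variance, the largest share of the 7 genes after that of Batf.

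**Figure D4:**
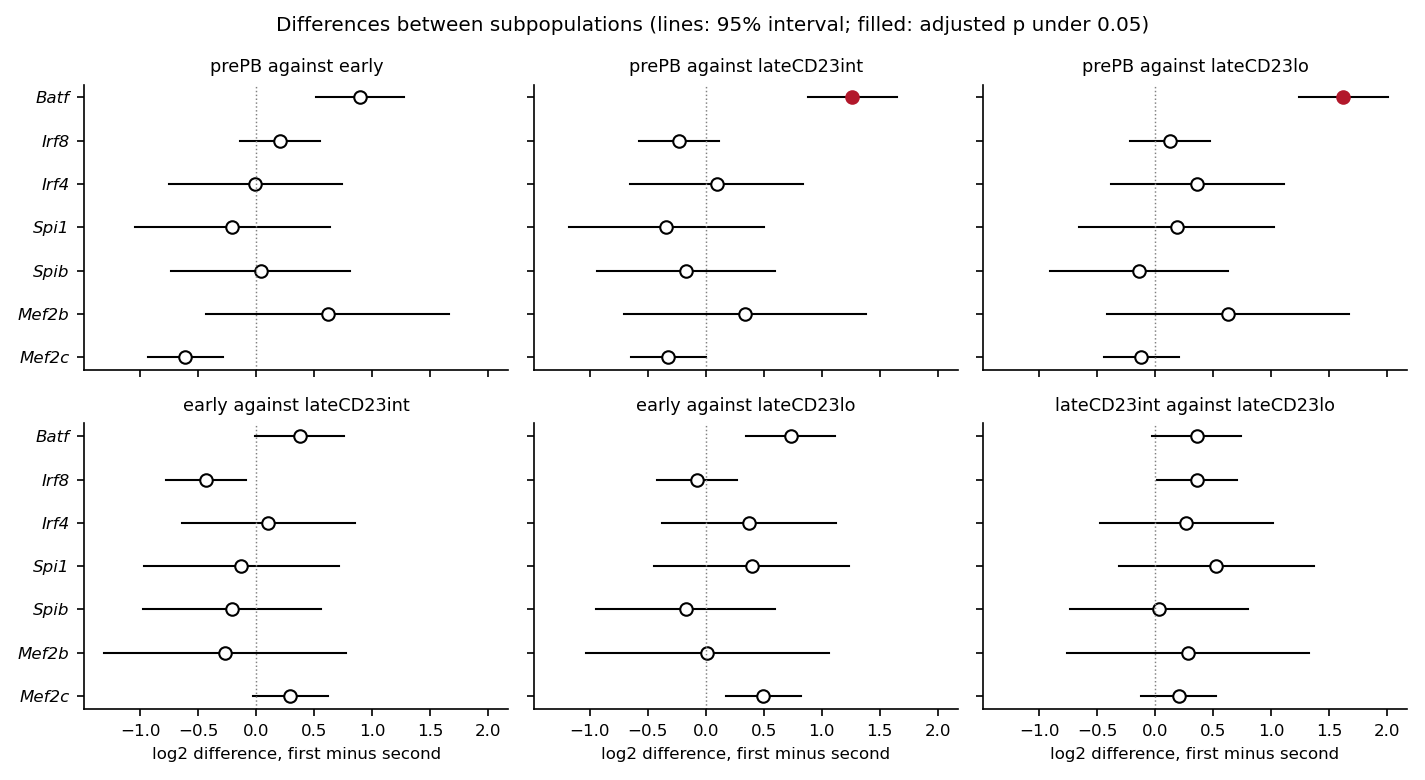
Log2 differences (horizontal axes, first minus second subpopulation) from the limma fit for 6 members and Irf4 in the 6 pairs of subpopulations; lines are 95% intervals and filled points passed an adjusted p of 0.05. The filled points are those of Batf in cMyc+ prePB against cMyc+ lateCD23int (1.27) and cMyc+ lateCD23lo (1.63); Batf3 is left out because 10 of its 16 values are 0.

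Levels of different genes were compared as reads per length of annotated exons and per library total (RPKM), with the 16 libraries averaged. Mef2b was at 121 RPKM, Batf at 109, Mef2c at 60.4, Irf8 at 34.6, Spib at 22.6, Spi1 at 7.62, Irf4 at 6.31 and Batf3 at 0.315. Mef2b libraries ranged from 44.6 to 238 RPKM and those of Batf from 50.2 to 229.5, so this pair did not differ beyond its spread. The ranges of Spi1 (3.61 to 16.7) and Irf4 (2.45 to 10.2) also overlapped, as did those of Irf8 (22.4 to 49.1) and Spib (10.4 to 43.0). In cMyc+ prePB Batf came first, at 195 ± 33.8 RPKM, with Mef2b at 159 ± 72.8, whereas in cMyc+ lateCD23lo Mef2b was at 88.5 ± 27.0 and Batf at 59.6 ± 8.33 (SD, n = 4 each). The order of the 3 most abundant genes depended on the length used. With the longest transcript in place of all exons, Batf was at 161, Mef2c at 151, Mef2b at 127 and Irf8 at 70.4 RPKM. Irf8 exceeded Irf4 per length of exons, with the lowest Irf8 library at 22.4 and the highest Irf4 library at 10.2 RPKM.

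The genes with the most similar pattern were taken by Pearson correlation of log2 values over the 16 libraries, which share subpopulations, depth and base composition. For Batf they were Ido1 (r = 0.94), which encodes a tryptophan-degrading enzyme, Ccnd2 (0.91), which encodes cyclin D2, and Plscr1 (0.88), an interferon-inducible scramblase gene. Ido1 was at 2391 to 3990 normalized counts in cMyc+ prePB and at 222 to 1654 elsewhere, higher by 2.13 (SE 0.259, limma adjusted p = 0.000562). The difference of Plscr1 was 1.53, and Ccnd2, at a mean of 11010 in cMyc+ prePB and 2433 to 6128 in the others, was also called (limma adjusted p = 0.000562 each). These genes were picked because they followed Batf over the same libraries. Their differences were thus largely set by that choice and are no separate evidence. For Mef2c, Pecam1 (0.89), an adhesion molecule gene, and Ralgps2 (0.84) were among the most similar. For Mef2b they were Stxbp2 (0.96), Hmga1 (0.96) and Prpf19 (0.95), for Spi1 Egln2 (0.91), Copa (0.91) and Laptm5 (0.90), for Spib Csk (0.84), Kmt5c (0.84) and Elmo2 (0.83), and for Irf8 Zfp60 (0.92), Sharpin (0.90) and Setd5 (0.89). Batf3 gave Akap13, Sbds and Bcl6 (0.82 to 0.81) on values that were mostly 0, and Irf4 gave Arf3, L3mbtl2 and Pop1 (0.84 each). Among the members, the highest correlations were those of Spi1 with Mef2b (0.77), Spi1 with Spib (0.67) and Mef2b with Spib (0.65), the 3 genes that moved with base composition. Batf correlated at -0.07 with Irf8 and at 0.26 with Irf4.

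Other genes of the same families were read from general lists. Over all 12505 genes tested, limma called 0.008% to 0.408% in a comparison, and 464 to 1588 had an unadjusted p under 0.05. At such shares, 0 calls in a list of this size are no result about the list. Of 15 AP-1 family genes besides Batf and Batf3, 9 were tested and 0 were called by limma or edgeR in any of the 8 comparisons, with at most 1 at an unadjusted p under 0.05. Bach2, a repressor of plasma cell differentiation, was the most abundant at a mean of 1428 normalized counts, followed by Junb (233), Jund (217), Mafk (179), Mafg (77.0) and Jun (62.9), and Batf2 and Atf3 were at 0 in all 16 libraries. Junb, a dimer partner of BATF, had means of 399 ± 408 for cMyc+ prePB and 82.5 ± 26.8 for cMyc+ lateCD23lo (SD, n = 4 each), a spread that left the difference of cMyc+ prePB from the other 3 at 1.06 (SE 0.615, limma adjusted p = 0.541). Of 8 IRF genes besides Irf8, 7 were tested and 0 were called by limma or edgeR, with at most 1 at an unadjusted p under 0.05 in a comparison. Irf2 (1912), Irf3 (1562), Irf5 (939), Irf9 (723) and Irf1 (344) were the other abundant members of that list.

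Of 14 further ETS genes, 13 were tested and 0 were called by limma or edgeR, beside at most 0.408% of all genes by limma. Up to 5 had an unadjusted p under 0.05 in a comparison. These were cMyc+ prePB against the other 3 subpopulations (beside 1393 of the 12505 genes tested) and against cMyc+ early (beside 1073). In cMyc+ prePB against the other 3 subpopulations their median difference was -0.38, beside 0.003 over all genes tested. A similar median was found for the B and GC B cell markers (-0.36) and for known target genes (-0.34). The medians of the AP-1, IRF and MEF2 lists were 0.105, 0.151 and 0.154. Ets1, the most abundant at a mean of 13967, was at 9746 ± 1350 in cMyc+ prePB against 14850 to 15880 in the means of the others (-0.64, SE 0.164, limma adjusted p = 0.117). Elf1 was at 4434 ± 651 in cMyc+ prePB against means of 5960 to 6305 (-0.48, SE 0.117, limma adjusted p = 0.0932), and Fli1 at 1747 ± 144 against 2061 to 2539 (-0.38, limma adjusted p = 0.339). Elf2 (1484), Gabpa (1318) and Elk3 (744) were the next in abundance. Of 9 genes for other MEF2 factors and their regulators, 9 were tested and 0 called by limma or edgeR. Up to 3 had an unadjusted p under 0.05, in cMyc+ early against cMyc+ lateCD23lo, beside 1290 of the 12505 genes tested. Hdac9, a corepressor of MEF2 factors, was at a mean of 1741, Mef2a at 882, Mapk14 at 447, Cabin1 at 317, Hdac7 at 266 and Mef2d at 176 normalized counts.

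Of 16 genes known as targets of these factors, which include Bach2 and Jun of the AP-1 list, 2 differed among the subpopulations by limma, Il10 and Fcer2a, and 1 by edgeR, beside 0.408% of all genes by limma. Il10, a cytokine gene that BATF and IRF4 activate in T cells, was at 39.7 to 112 normalized counts in cMyc+ prePB, 44.6 to 127 in cMyc+ lateCD23int and 84.6 to 199 in cMyc+ lateCD23lo, whereas the 4 cMyc+ early libraries held 2, 1, 2 and 0 reads. It was called in cMyc+ early against each of the other subpopulations (limma adjusted p = 0.00429, 0.012 and 0.000518). The call against cMyc+ lateCD23int passed in 13 of 16 fits with 1 library left out (adjusted p from 0.018 to 0.118) and was lost without cMyc+ lateCD23int replicate 2 or 4 or cMyc+ early replicate 4. Of 15 processing alternatives it passed in 10 (adjusted p from 4.45e-07 to 0.483), and it was lost with a pseudocount of 5, a mean of at least 50, quantile normalization, only the groups compared or edgeR with a replicate block. Fcer2a encodes CD23, on which 3 of the gates were set, so its difference of 2.63 between cMyc+ early and cMyc+ lateCD23lo is no finding. Klf2, a MEF2 target, was at 45.2 to 153 in cMyc+ early and 0 to 6.47 in cMyc+ lateCD23lo (4.53, SE 0.9, limma adjusted p = 0.0394; edgeR 0.141), and leaving out single libraries gave adjusted p from 0.0284 to 0.133, with 6 of 16 under the threshold, and 14 processing alternatives gave 0.00089 to 0.141, with 8 under it. In cMyc+ prePB against the other 3 subpopulations 0 of 16 were called by limma or edgeR and 8 had an unadjusted p under 0.05, beside 1393 of the 12505 genes tested. Bcl6, which encodes a repressor that maintains the GC state, was at 1679 ± 418 against 2114 to 2966 (-0.55, limma adjusted p = 0.279). Cd79b (27816), Cd79a (25306), Blnk (11100.4) and Ebf1 (7166) were the other abundant genes of that list.

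The sequence before the start site was read from RefSeq (GRCm38.p6) for Batf, Batf3, Irf8, Spib, Mef2b, Mef2c and Irf4, and not for Spi1, in 10 windows. The windows of 250 bases were searched on both strands for the AP-1 motif TGANTCA, the paired IRF motif GAAANNGAA, the ETS and IRF motif GGAANNGAA, the E-box CACGTG bound by MYC, the STAT motif TTCNNNGAA and the GC box GGGCGG. These stand in 6.75%, 7.13%, 6.99%, 6.02%, 7.02% and 32.74% of 32851 promoter windows of that length. TGANTCA matched in 1 of the 10 windows, at a Mef2c start site, GAAANNGAA and GGAANNGAA in 0, CACGTG in 1 (Batf3), TTCNNNGAA in 3 (Batf3, Irf8 and Mef2c) and GGGCGG in 7, with no matches of different motifs overlapping. A match is a description and not a bound site, and no match says only that these letters are not in the window. Shown are Batf, the member that differed between subpopulations (chr12:85686470-85686668, plus strand, up to 52 bases before the start site, with its GC box in capitals), Irf8, its partner (chr8:120736108-120736357, plus strand, with STAT motifs and GC boxes in capitals), and the Mef2c window with the AP-1 motif in capitals (chr13:83573357-83573606, plus strand), each 5′ to 3′.
Batf: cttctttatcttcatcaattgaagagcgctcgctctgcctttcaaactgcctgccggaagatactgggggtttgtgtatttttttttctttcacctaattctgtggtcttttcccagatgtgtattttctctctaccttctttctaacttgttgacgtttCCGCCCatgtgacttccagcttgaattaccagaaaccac
Irf8: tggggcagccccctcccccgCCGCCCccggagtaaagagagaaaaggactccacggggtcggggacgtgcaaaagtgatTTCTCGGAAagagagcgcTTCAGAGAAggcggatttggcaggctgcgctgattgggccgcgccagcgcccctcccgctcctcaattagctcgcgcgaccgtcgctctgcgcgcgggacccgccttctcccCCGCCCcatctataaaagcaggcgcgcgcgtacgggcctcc
Mef2c: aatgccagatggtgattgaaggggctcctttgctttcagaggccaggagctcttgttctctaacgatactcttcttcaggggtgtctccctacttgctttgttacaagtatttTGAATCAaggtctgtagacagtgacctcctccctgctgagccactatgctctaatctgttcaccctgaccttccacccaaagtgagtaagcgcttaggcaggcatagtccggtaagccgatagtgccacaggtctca
The Batf window held 1 GC box, 90 to 85 bases before the start site and on the reverse strand, and none of the other 5 motifs. The Irf8 window held 2 STAT motifs, starting 171 and 153 bases before the start site, and 2 GC boxes on the reverse strand.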

How the data were processed

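Libraries of total RNA from sorted cells (16 in all) were prepared with a low-input kit. For each gene the authors deposited normalized signal values, which are counts scaled by a size factor per library; the submitters' processing notes name Trimmomatic 0.36, STAR 2.5.2a, RSEM 1.2.31, DESeq2 1.20.0, R 3.5.1 and GRCm38, with no roles. All columns were mapped to samples by their labels. In every library 100% of the values were whole multiples of the value of 1 read (tolerance 0.01 reads), and the recovered reads, 19812080 to 25795815 per library, gave edgeR and DESeq2 alternatives.

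The main test was limma 3.58.1 in R 4.3.3 on log2(normalized count + 1), fitted once over all libraries to the 12505 genes averaging 10 or more, with a mean-dependent prior; p-values were adjusted by Benjamini-Hochberg over those genes. Because of the pseudocount of 1, changes of low genes are understated. The 7 genes, the gene lists and the rule for genes named (all members and Irf4, list genes called or among the 6 most abundant of their list, and the 3 genes most correlated with each member) were chosen with earlier results of these data known; markers of other cell types are named beside the results they touch, and some genes that the rule takes in are not reported here. Coordinates are from GENCODE for GRCm38. RPKM values were computed from recovered reads. GC content came from the longest transcript (12471 genes, 99.7%). Tests were tried on simulated data. Alternatives were pseudocounts of 0.5 and 5, no filter, a mean of at least 50, the same total, TMM, quantile normalization, no trend, only the groups compared, the replicate block, edgeR 4.0.16, DESeq2 1.42.0 and leaving out each library; centring within 20 GC bins was added after the data were seen.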

Additional observations from a re-analysis of the deposited data

Results flagged for a closer look

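Within the 4 libraries of a subpopulation, 4 of 31 sets of values for the 7 genes and Irf4 had a highest or lowest library that stood apart from the others by more of the range than Dixon's 95% limit. For normally distributed values about 1 in 20 sets would do so. That rate does not hold for the Batf3 sets, which hold many values of 0, so the count is a description. Batf3 was at 27.2 normalized counts in cMyc+ early replicate 1, with the other 3 libraries at 0. Batf3 was at 19.3 in cMyc+ lateCD23int replicate 2, with the others at or under 3 reads. Spib was at 2536 in cMyc+ lateCD23int replicate 3, the library with the highest Mef2b and Spi1 values and a GC-rich minus GC-poor difference of 0.51. Mef2b was at 1624 in cMyc+ prePB replicate 1, a library with a GC-rich minus GC-poor difference of -0.47 beside 0.23 to 0.75 in the other 3. The part of base composition in the Spib and Mef2b values was not tested library by library.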

How the results depend on the processing

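Batf stayed past the threshold in cMyc+ prePB against the other 3 subpopulations under all 14 alternatives (from 1.12 after GC centring to 1.31, adjusted p 1.85e-12 to 0.00655) and without each library in turn (1.19 to 1.35). Of the 7 genes, 2 differed among the subpopulations in DESeq2, and in cMyc+ prePB against cMyc+ early 1 was called at the same total, with quantile normalization, with the replicate block and in edgeR with the block and 2 in DESeq2, with a range of 0 to 1 over single libraries left out; in cMyc+ early against cMyc+ lateCD23lo DESeq2 called 1. The cause was not tested. With the longest transcript RPKM moved to 161.16 for Batf, 70.44 for Irf8 and 151.14 for Mef2c, which follows from the shorter length. Uncalled differences of cMyc+ prePB turned sign for Irf8 after GC centring (-0.029, also with the replicate block) and over single libraries left out for Irf8 (-0.02 to 0.094, namely without cMyc+ prePB replicate 2, early replicate 3 or lateCD23lo replicate 4 at -0.02, -0.001 and -0.01), Spi1 (-0.30 to 0.14), Spib (-0.39 to 0.20, both without cMyc+ prePB replicate 1) and Irf4 (0.31 to -0.003, without cMyc+ prePB replicate 3).

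Deviations of same-numbered libraries correlated over 0.1 in 5 of 24 pairs (mean 0.051, beside a mean of -0.017 for differently numbered libraries). Pairing was thus not settled, and the main fits are without it. The sample titles repeat the same numbers in every subpopulation but do not say what a number marks, and 10 of 16 libraries were closest to their own number. With the replicate block the adjusted p of Batf against cMyc+ early was 0.027 and that of Mef2c 0.0566, and genes called among the subpopulations rose from 51 to 173. Of the lists, 6 target genes, Il10 and Fcer2a included, were called among the subpopulations with the block, against 2 without it. In cMyc+ prePB against the other 3 subpopulations 5 list genes were called with the block, against 0 without it. Among them were Ets1 (limma adjusted p = 0.0129) and Bcl6 (0.0392). Over all genes tested, calls in that comparison rose from 39 to 211. edgeR called 29 genes in place of 51. Batf3 had 0 reads in 10 of 16 libraries, and the cause was not tested.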
